A study of Homo sapiens with 6 samples.

Results

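The genes described here are 8 interferon-induced antiviral effectors, MX1, MX2, RSAD2 (which encodes viperin), CMPK2, IFI44, IFI44L, IFI6 and BST2 (tetherin). They were taken by gene identifier from a table of 60664 Ensembl genes, and each symbol matched 1 row. The table came from U-2 OS cells, an established osteosarcoma line, transfected with control siRNA (siCTRL) or with siRNA targeting SFPQ (siSFPQ), with 3 libraries in each group. The siRNA was used at 30 nM, the labels name no drug or virus, and both groups are cells of the same polyploid line. SFPQ, an RNA- and DNA-binding nuclear protein, had a lower count in every siSFPQ library than in any siCTRL library, with a fitted log2 fold change of -2.73.

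Type I and type III interferons signal through receptors and JAK kinases to a transcription factor complex, which binds the interferon-stimulated response element (ISRE) in the promoters of effector genes. Some effector genes can also be switched on by IRF3 downstream of nucleic acid sensors, before any interferon has acted. The effectors themselves act at different steps of viral infection, from capsid uncoating and nucleic acid synthesis to the release of particles, and many of them are nearly silent in unstimulated cells.

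The promoter letters of the 8 genes are shown first, since the genes share induction by interferon and the motif is the known docking site for it. RefSeq promoter windows on GRCh38.p14, from 250 bases before to 50 bases after each listed start, were given for 7 of the 8 genes, with 13 windows in all. MX2 was not among them. The ISRE core searched for was GAAA, any 2 bases and GAAA, on both strands. It occurred in 6 of these 7 genes and in 8 of their 13 windows, against 3.57% of all 35116 windows and 4.38% of all 27305 genes. CMPK2, with 3 windows, was the gene without a match, which says only that these letters are not in those windows. One match for each of the 6 genes is printed on the gene's own strand, with the core in capitals.
RSAD2, chr2:6877623-6877650, + strand: tgtttcaacTTTCAGTTTCacatgtgga
MX1, chr21:41420560-41420587, + strand: agcagaaatGAAACCGAAActgaattgt
IFI44, chr1:78649762-78649789, + strand: cacactgagTTTCAGTTTCctttctctg
IFI44L, chr1:78620275-78620302, + strand: cctagtgagGAAAAAGAAAgttagtggc
IFI6, chr1:27672330-27672357, - strand: gagagagggGAAAATGAAActctgcaga
BST2, chr19:17405742-17405769, - strand: cctttctggGAAACTGAAActgaaaacc
In RSAD2 and IFI44 the core lies on the opposite strand and is therefore read as its reverse complement. RSAD2 has 2 listed starts. The match shown began 145 bases before the second of them, inside the annotated span of the gene, and the window of the first start held none. The matches began 156 bases before the IFI6 start, 130 before the BST2 start and 164 before the IFI44L start. In MX1 the match lay 11 bases after the listed start to which its first window belongs. IFI44 has 2 overlapping windows that hold the same match, 18 and 60 bases before the 2 listed starts.

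The number and form of the matches differed between the genes. IFI6 held 3 cores in its single window, and IFI44L held 2, the second 73 bases before the start with the same 9 flanking bases on either side as the first. BST2 held 2 overlapping cores. A longer form, the core followed directly by CT, occurred in IFI6, IFI44, BST2 and MX1, which is 4 of the 7 genes against 0.322% of all genes and 0.273% of all windows. The gamma-activated sequence, a motif of the interferon gamma response, TTC, any 3 bases and GAA, was searched for as well. It occurred in MX1 and BST2, which is 2 of the 7 genes against 9.38% of all genes, and in each of them 1 match overlapped an ISRE core. All of these are letter matches and not measured binding.

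Total counts ranged from 43469321 to 47119203 over the 6 libraries, and 3 counts, the limit that a count of 0 allows, correspond to 0.0637 to 0.069 CPM, the unit of counts scaled to a common library total. This limit and the intervals cover the spread and counting error of these libraries only. The study describes 3 biological replicates, but the labels do not state that the libraries came from separate cultures, so the p-values measure the spread between these samples. In bulk RNA, more cells expressing a gene and more RNA per cell cannot be told apart.

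Differences between the groups were tested by the quasi-likelihood test of edgeR with Benjamini-Hochberg adjustment over 29022 genes, those whose counts summed to 10 or more. Of the 8 effector genes, 6 were higher in siSFPQ at an adjusted p under 0.05, against 22.4% of all genes tested. None was lower, against 22.1% of all genes, and all 8 fitted changes were above 0 with edgeR and with DESeq2. With the additional requirement of a log2 fold change over 1.5, RSAD2, IFI44L, MX2 and IFI44 were called higher, 4 of 8 against 5.54% of all genes, while 4.77% of all genes were called lower. The lowest siSFPQ library lay above the highest siCTRL library for 6 of the 8 genes, against 26.9% of all genes, and the reverse, seen for 25.4% of all genes, occurred for none. The median log2 fold change of the 8 genes was 1.05 and that of all genes tested was 0.02. MX2, RSAD2 and IFI44 belong to a gene signature that the study drew from these libraries, so their direction is not independent evidence.

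**Figure D1:**
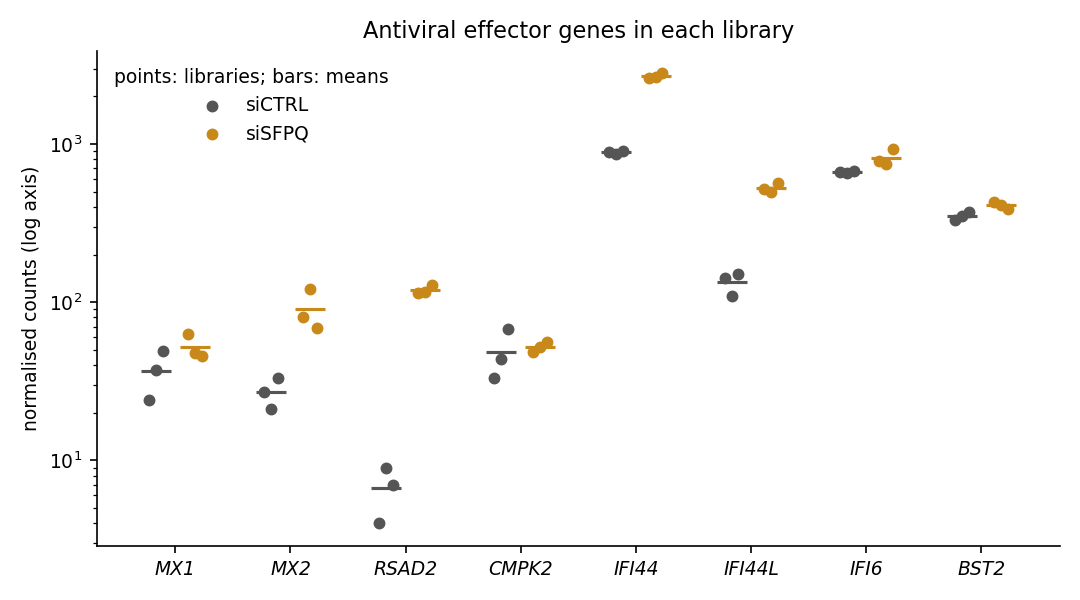
Normalised counts (counts scaled to a common library size, log axis) of the 8 antiviral effector genes in each of the 3 siCTRL and 3 siSFPQ libraries, with bars at the group means. RSAD2, MX2, IFI44 and IFI44L show separate groups far apart, IFI6 and BST2 show separate groups close together, and the groups of MX1 and CMPK2 overlap.

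RSAD2, an enzyme of the endoplasmic reticulum and lipid droplets that converts CTP into a chain-terminating nucleotide, changed most. In the order of replicates 1, 2 and 3, as for all counts given below, it had 4, 9 and 7 counts in siCTRL and 111, 119 and 131 in siSFPQ. The groups were far apart, with 9 counts in the highest control and 111 in the lowest siSFPQ library. Normalised counts averaged 6.68 ± 2.51 (SD, n = 3) in siCTRL and 120 ± 8.0 (SD, n = 3) in siSFPQ, a 17.7-fold difference with a 95% interval from 11.8 to 26.4. Its log2 fold change of 4.14 was larger than that of 98.7% of all genes tested.

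CMPK2, a mitochondrial nucleotide kinase that lies head to head with RSAD2, did not pass the test. Its counts were 33, 44 and 67 in siCTRL and 47, 53 and 57 in siSFPQ, so all 3 siSFPQ libraries lay within the siCTRL range. The log2 fold change was 0.12 with a 95% interval from -0.39 to 0.63 (edgeR adjusted p = 0.751), and it was -0.090 when siCTRL replicate 1 was left out. The interval excludes a rise of the size seen for RSAD2 but not a smaller change in either direction.

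On GRCh38, RSAD2 spans chr2:6865557-6898239 on the + strand and CMPK2 spans chr2:6840570-6866635 on the - strand. They share 351 exonic bases, which is 6.2% of the RSAD2 exons and 8% of the CMPK2 exons in the GENCODE annotation, introns left out. The study describes stranded libraries, but the strand setting of the counting is not given in the sources used here. Whether reads from those shared bases were assigned by strand is therefore not known. Within each library, the log2 ratio of CMPK2 to RSAD2 counts was 2.90, 2.23 and 3.17 in siCTRL and -1.23, -1.16 and -1.19 in siSFPQ. CMPK2 was thus the more abundant of the pair by counts in every siCTRL library and the less abundant in every siSFPQ library. The difference of the means was -3.96, and an exact two-sided permutation test gave p = 0.1, which is the lowest value attainable with 3 libraries a group. NRIR, an antisense long non-coding RNA at this locus known as a negative regulator of the interferon response, had 0, 1 and 0 counts in siCTRL and 0 in every siSFPQ library.

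MX1 and MX2 encode dynamin-like GTPases. MX1 acts in the cytoplasm against many RNA viruses, and MX2 acts at the nuclear envelope against retroviruses and herpesviruses. MX2 had 27, 21 and 33 counts in siCTRL and 78, 123 and 70 in siSFPQ, with no overlap, although siSFPQ replicate 2 stood above the other two. Normalised counts rose from 27.1 ± 6.04 to 90.0 ± 27.0 (SD, n = 3 each), with log2 fold change 1.73 and a 95% interval from 1.22 to 2.24 (edgeR adjusted p = 6.39e-07). Without siSFPQ replicate 2 the log2 fold change was 1.45, below the threshold of 1.5, with an edgeR adjusted p of 1.75e-04.

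MX1 had 24, 37 and 49 counts in siCTRL and 61, 49 and 46 in siSFPQ, so that the lowest siSFPQ libraries fell within the range of the controls. Its log2 fold change of 0.50, with a 95% interval from -0.05 to 1.05, did not pass (edgeR adjusted p = 0.136). Leaving out siCTRL replicate 3 gave 0.77 and an edgeR adjusted p of 0.0404, and leaving out siCTRL replicate 1 gave 0.27. The call for MX1 therefore turned on 1 control library.

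Both MX genes lie on the + strand of chromosome 21, MX2 at chr21:41361999-41409393 and MX1 at chr21:41420020-41470071. MX2 overlapped no other annotated gene. MX1 shares 562 exonic bases, 3.12% of its exons, with TMPRSS2 on the opposite strand and 436 bases, 2.42%, with a long non-coding RNA on that strand. The longest run of bases that transcripts of MX1 and MX2 have in common was 68, shorter than one read of these libraries. The log2 ratio of MX2 to MX1 counts was 0.17, -0.80 and -0.56 in siCTRL and 0.35, 1.32 and 0.60 in siSFPQ. It was higher in every siSFPQ library than in any siCTRL library, by 1.16 on average (exact permutation test, p = 0.1, again the lowest attainable).

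**Figure D2:**
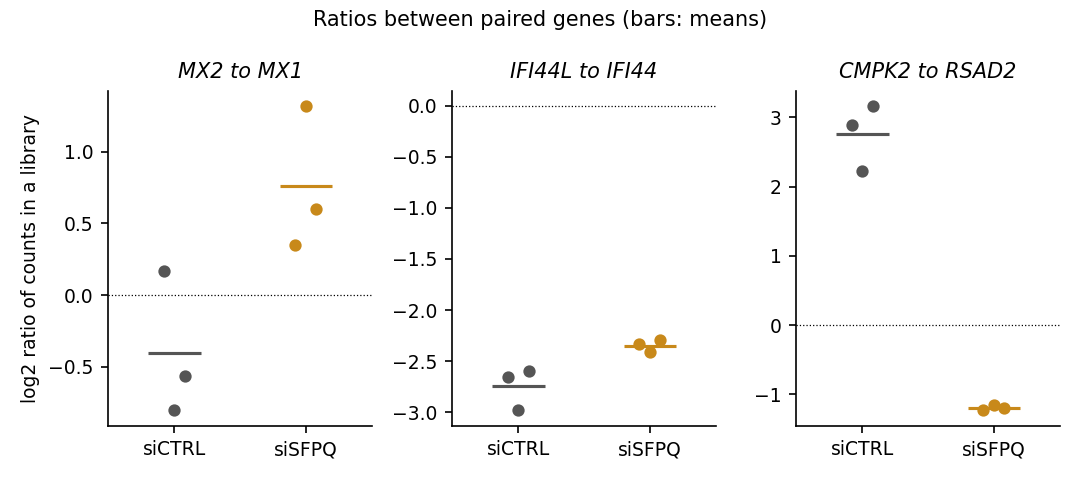
Log2 ratio of raw counts of MX2 to MX1, IFI44L to IFI44 and CMPK2 to RSAD2 in each library, with bars at the group means, the dotted line at equal counts, and a separate vertical scale for each panel. The groups do not overlap in any panel, and the ratio of CMPK2 to RSAD2 changes sign between siCTRL and siSFPQ.

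IFI44 and IFI44L are neighbouring paralogs on the + strand of chromosome 1, at chr1:78649796-78664078 and chr1:78619902-78646145, and overlap no other annotated gene. Both encode cytoplasmic proteins with a GTP-binding fold that have been linked to feedback on interferon signalling. IFI44 had 888, 865 and 907 counts in siCTRL and 2534, 2705 and 2839 in siSFPQ. Its coefficients of variation of 2.51% and 3.71% in siCTRL and siSFPQ were small, and the 95% interval of its log2 fold change of 1.60 ran from 1.49 to 1.70, so the lower end touched the threshold of 1.5.

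IFI44L had 141, 109 and 150 counts in siCTRL and 502, 508 and 578 in siSFPQ. Normalised counts rose from 134 ± 21.8 to 528 ± 37.6 (SD, n = 3 each). The log2 fold change was 1.98, with a 95% interval from 1.75 to 2.22 (edgeR adjusted p = 2.90e-16). Both paralogs rose, and the ratio between them did not overlap between the groups. The log2 ratio of IFI44L to IFI44 was -2.65, -2.98 and -2.59 in siCTRL and -2.33, -2.41 and -2.30 in siSFPQ, higher in every siSFPQ library by 0.39 on average (exact permutation test, p = 0.1). Over the 3 pairs of genes compared in this way, the Benjamini-Hochberg adjusted p was 0.1 for each. The longest run shared by transcripts of the IFI44 pair was 13 bases.

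IFI6, a small membrane protein of mitochondria and endoplasmic reticulum that restricts flaviviruses and apoptosis, was already abundant in siCTRL. It had 661, 657 and 676 counts in siCTRL and 760, 766 and 940 in siSFPQ, with replicate 3 the highest. Normalised counts were 666 ± 10.8 and 820 ± 94.2 (SD, n = 3 each). The log2 fold change of 0.30, with a 95% interval from 0.14 to 0.46, passed the adjusted p alone (edgeR adjusted p = 0.00159) and was 0.21 without siSFPQ replicate 3. The gene spans chr1:27666064-27672212 on the - strand and shares 216 exonic bases, 23.1% of its exons, with LINC02574 on the same strand, so part of its reads cannot be told apart from that transcript.

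BST2 encodes tetherin, which holds budding enveloped virus particles at the cell surface. It had 329, 348 and 370 counts in siCTRL and 416, 418 and 396 in siSFPQ. The groups did not overlap, but the change was small, with a log2 fold change of 0.23 and a 95% interval from 0.04 to 0.42 (edgeR adjusted p = 0.0444). DESeq2 gave an adjusted p of 0.0845, and leaving out siCTRL replicate 1, siCTRL replicate 2, siSFPQ replicate 1 or siSFPQ replicate 2 took BST2 past 0.05, up to an edgeR adjusted p of 0.132. BST2 lies at chr19:17402939-17405630 on the - strand. BISPR, a long non-coding RNA next to BST2 that is known as a positive regulator of it, had 12, 24 and 25 counts in siCTRL and 46, 34 and 62 in siSFPQ. BISPR rose by 1.21 ± 0.32 (SE) on the log2 scale (edgeR adjusted p = 0.00241).

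**Figure D3:**
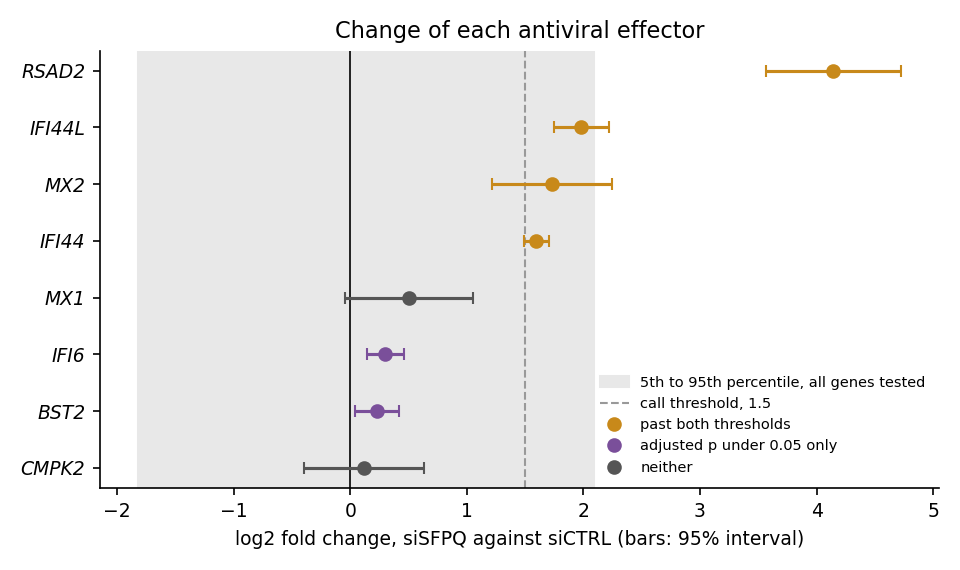
Log2 fold change of each gene in siSFPQ against siCTRL with its 95% interval, the grey band marking the 5th to 95th percentile of all 29022 genes tested and the dashed line the threshold of 1.5. RSAD2 lies beyond the band at 4.14, MX2, IFI44 and IFI44L lie between 1.60 and 1.98 within it, and the intervals of MX1 and CMPK2 include 0.

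Levels were compared between the genes as normalised counts per kb of the canonical transcript. In siCTRL the order on this scale was IFI6 (820), IFI44 (528), BST2 (349), IFI44L (22.9), CMPK2 (15.5), MX1 (13.2), MX2 (7.94) and RSAD2 (1.96). The ranges over libraries of IFI44L and CMPK2, of CMPK2 and MX1, and of MX1 and MX2 overlapped, so the ranges alone do not separate these neighbours. Both genes of a pair were measured in the same libraries, and the stated order held within each siCTRL library. The other neighbours had no overlap.

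In siSFPQ the order on the same scale was IFI44 (1597), IFI6 (1010), BST2 (409), IFI44L (90.6), RSAD2 (35.2), MX2 (26.4), MX1 (18.8) and CMPK2 (16.9). RSAD2 moved from the 8th to the 5th place, and CMPK2 from the 5th to the 8th. In this order RSAD2 overlapped MX2, MX2 overlapped MX1 and MX1 overlapped CMPK2. Per kb of all annotated exons instead of the canonical transcript, the 4 highest kept their places in both groups and CMPK2 came 6th in siSFPQ, above both MX genes.

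Summed over the 8 genes, normalised counts rose from 2155 ± 95.6 to 4759 ± 198 (SD, n = 3 each), a 2.21-fold difference. IFI44 alone made up 69.1% of the rise. Its share of the sum was 40.2% to 42.2% in the siCTRL libraries and 56.1% to 57.1% in the siSFPQ libraries. Among the controls, siCTRL replicate 3 had the highest normalised count for 7 of the 8 genes, and siCTRL replicates 1 and 2 had the lowest for 4 genes each.

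Most of 35 other antiviral effectors rose as well. By edgeR's adjusted p, 22 of them rose, against 22.4% of all genes tested, 3 fell, against 22.1%, and 10 passed in neither direction. At the threshold of 1.5 for the log2 fold change, 8 were called higher, against 5.54% of all genes. The median log2 fold change was 0.44. IFIT2, IFIT3, OAS2, HERC5 and others of this list belong to the signature that the study drew from these libraries. Their direction is therefore not independent evidence. IFIT3 (3.40) and IFIT2 (3.23), which bind viral RNA or associate with such complexes, had larger log2 fold changes than every one of the 8 genes except RSAD2. OAS2 (2.64), which makes short oligoadenylates on binding double-stranded RNA, also exceeded the MX and IFI44 genes. Among the genes that fell, MOV10 did so by 0.16 and TRIM5 by 0.12 on the log2 scale. With library size alone as the scaling, 25 rose and 1 fell. HERC5, the ligase that attaches ISG15, had 0 counts in every siCTRL library and 6, 3 and 5 in siSFPQ, too few for a dependable fold change.

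Genes of interferon sensing and signalling moved less, with a median log2 fold change of 0.08 over 23 genes. At an adjusted p under 0.05 with edgeR, 9 rose and 2 fell, against 22.4% and 22.1% of all genes tested. The other 12 passed in neither direction, and without siCTRL replicate 2 the number that rose was 5. STING1 (1.64), the adaptor of cytosolic DNA sensing, and IRF1 (0.99), a transcription factor that binds ISRE-like sequences, rose most. STING1 also belongs to the signature that the study drew from these libraries, so its direction is not independent evidence. The RNA sensors RIGI (0.94) and IFIH1 (0.81) rose as well. SOCS1, an inhibitor of JAK signalling, fell by 1.17. STAT2 (log2 fold change 0.03), IRF9 (0.31) and IRF7 (-1.17, from 2, 20 and 12 counts in siCTRL and 3, 6 and 6 in siSFPQ) did not pass the test.

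The 10 interferon genes looked at were at or near 0, and other interferon genes were not examined. Of these, 6, among them IFNB1 and IFNG, had 0 counts in all 6 libraries, which allows up to 0.069 CPM in the library with the smallest total. By quantitative PCR, a different assay, the study lists IFNB1 among the genes whose expression a STING antagonist lowered. IFNK, IFNL1 and IFNL2 had at most 2 counts in any library. IFNE, an interferon of epithelia that is not induced by infection, was the only one to reach the total of 10 counts that the test required. It had 2, 4 and 4 counts in siCTRL and 0 in every siSFPQ library (edgeR adjusted p = 0.0249). IFNE passed that filter through siCTRL alone, and its counts are too few for a dependable fold change or p-value.

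Relatives of the 8 genes by protein family or enzyme activity showed no shared rise. Their counts below stand beside 22.4% of all genes tested that rose and 22.1% that fell at an adjusted p under 0.05 with edgeR. In the dynamin superfamily, to which the MX proteins belong, 3 of 7 genes fell (DNM3 by 1.29, DNM2 by 0.40 and MFN1 by 0.25 on the log2 scale) and the other 4 passed in neither direction with edgeR, although with library size alone as the scaling 3 rose and 3 fell. Of 3 relatives of IFI6, IFI27L1 fell by 0.44, and IFI27 (-0.41), also counted among the other antiviral effectors, and IFI27L2 (-0.19) did not pass. Of 5 nucleoside and nucleotide kinases beside CMPK2, 2 rose and 3 fell. The mitochondrial TK2 (0.55) and DGUOK (0.31) rose, while CMPK1, the cytosolic counterpart of CMPK2, fell by 0.94, the mitochondrial NME4 by 0.31 and DTYMK by 0.14 on the log2 scale, the last of which did not pass with library size alone as the scaling.

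Protein-coding genes within 250 kb of the 8 genes did not share their direction at the loci of the 4 genes called higher. At the MX locus both tested neighbours fell, with log2 fold changes of -2.54 for BACE2 and -0.86 for TMPRSS2. RNF144A, 19.2 kb beyond RSAD2, had a log2 fold change of -0.58, and PTGFR (-1.13) and ADGRL4 (-2.47) flank the IFI44 pair. At these 3 loci all 5 tested neighbours therefore fell. The neighbour counts stand beside background shares, by edgeR's adjusted p, of 22.4% going up and 22.1% going down among 29022 genes. Of 8 neighbours of IFI6, 2 rose, 1 fell and 5 passed in neither direction. Around BST2 the corresponding numbers of 20 tested genes were 9, 3 and 8, and MVB12A, 0.092 kb upstream of BST2, had a log2 fold change of 0.09.

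The protein-coding genes most alike in pattern were found among 12957 genes by the Euclidean distance over the 6 libraries in log2 CPM centred on the siCTRL mean, as a description without a test. For RSAD2 these were MYCT1 (distance 0.50) and TCIM (0.79), and for MX2 they were GALNT3 (0.41) and PAK6 (0.49). RNF43 (0.14) and RIN1 (0.14) were the most alike to IFI44, and KRT16 (0.30) and MISP (0.31) to IFI44L. For IFI6 the list gave TRAPPC6A (0.07) and the cytidine deaminase APOBEC3C (0.10), and for BST2 it gave GK5 (0.06) and STXBP3 (0.08). ACVR1C (0.26) and SYT15B (0.34) were nearest to MX1, and NFKBID (0.23) and HOXA5 (0.31) to CMPK2. All distances share the same libraries and the same control mean.

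Markers of other cell types were read beside these changes. Of 10 osteoblast and mesenchymal markers, read for the labelled osteosarcoma origin, 6 had a mean over the 6 libraries of 1 CPM or more. The 10 summed to 5984 to 6318 CPM in siCTRL and 5480 to 5502 CPM in siSFPQ. Most of that came from COL1A1 (means of 2910 CPM in siCTRL and 2279 in siSFPQ), SPARC (2222 and 1977) and VIM (924 and 1155). COL1A2 had means of 0.83 and 1.09 CPM. The osteoblast genes SP7, IBSP and BGLAP had at most 5 counts, 1 count and 6 counts in any library. No marker list had a gene at 0 in all libraries. None of 10 leukocyte markers had a mean of 1 CPM or more, and they summed to 1.97 to 2.34 CPM in siCTRL and 2.27 to 2.68 CPM in siSFPQ. Single leukocyte markers moved in opposite directions by edgeR's adjusted p. ITGAM rose from 16, 3 and 1 counts in siCTRL to 39, 21 and 34 in siSFPQ (log2 fold change 2.21), CSF1R rose by 0.75, and PTPRC, which encodes the pan-leukocyte CD45, went from 26, 30 and 39 counts to 12, 14 and 5 (-1.61). Markers of plasmacytoid dendritic cells, which make interferon, summed to 1.40 to 1.95 CPM and 3.54 to 4.67 CPM, with 1 of 3, IL3RA, at a mean of 1 CPM or more and the defining CLEC4C and LILRA4 at no more than 4 counts in any library. The part of these markers in the rise of the effector genes was not tested.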

How the data were processed

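RNA-seq counts of U-2 OS cells were analysed in 2 groups, siCTRL and siSFPQ, with 3 libraries each, grouped by the titles in the labels. The authors checked reads with FastQC, counted them per gene with STAR 2.7.9a on Ensembl GRCh38 and deposited raw counts, without normalization and with genes at 0 kept. The study describes the libraries as stranded mRNA libraries, but the strand setting of the counting is not given in the sources used here. All 6 sample columns were used, which left 0 columns unused.

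Counts were fitted with edgeR 4.0.16 in R 4.3.3 (TMM, quasi-likelihood test, no covariates, at least 10 counts in total) over 29022 genes with Benjamini-Hochberg adjustment. Genes were called at a log2 fold change beyond 1.5 in either direction together with an adjusted p under 0.05. Normalised counts are counts divided by effective library size, scaled to the libraries' geometric mean. Names, spans and exons come from GENCODE release 44, which matched 99.67% of the identifiers, and promoter windows from RefSeq. Ratios within a library used 0.5 added to each count. Total counts of 43469321 to 47119203 per library set the precision.

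The 8 genes and all lists were chosen with earlier results of these data known. The text names the 8 genes, SFPQ, list genes past the adjusted p with the largest rises and falls or on which a sentence turns, and the 2 protein-coding genes of at least 1 CPM most alike to each (prior count 2). Alternatives were other filters, RLE or library size alone, DESeq2 1.42.0, a replicate block, protein-coding genes only, other thresholds and priors, and each library left out. On simulated data with 200 of 27653 genes changed by a log2 fold of 2, edgeR recovered 197 with 4 others called and DESeq2 recovered 195. Libraries of a group were checked for repeats and differed by more than counting error (chi-square over degrees of freedom, 4.07 to 5.96). MX1-AS1 was not matched and has no value. Of the listed genes, 2 are counted with their lists but not reported here by name.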

Additional observations from a re-analysis of the deposited data

How the results depend on the processing

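The calls for RSAD2, IFI44 and IFI44L and the adjusted p side of IFI6 held under each alternative run, with log2 fold changes over left-out libraries of 3.89 to 4.41 for RSAD2, 1.58 to 1.63 for IFI44, 1.86 to 2.08 for IFI44L and 0.21 to 0.35 for IFI6. MX2 ranged from 1.45 to 1.90, and without siSFPQ replicate 2 the number of the 8 genes called higher was 3 instead of 4. BST2 missed an adjusted p of 0.05 with no filter on low counts (0.22, adjusted p = 0.077) and with DESeq2 (0.23, adjusted p = 0.0845). It ranged from 0.19 to 0.27 over left-out libraries. MX1 ranged from 0.27 to 0.77 and passed only without siCTRL replicate 3 (edgeR adjusted p = 0.0404). CMPK2 ranged from -0.090 to 0.44 and changed sign without siCTRL replicate 1. The number of the 8 genes higher at an adjusted p under 0.05 ranged from 5 to 7. Genes of sensing and signalling that rose numbered 5 to 8 over left-out libraries against 9 with all libraries, the 5 without siCTRL replicate 2, and other antiviral effectors that rose numbered 19 to 22 and those that fell 2 to 4. With library size alone as the scaling, 1 other antiviral effector fell instead of 3. The difference in log2 ratio ranged from 0.88 to 1.44 for MX2 to MX1, from 0.27 to 0.47 for IFI44L to IFI44 and from -4.23 to -3.76 for CMPK2 to RSAD2. Over all genes, 1609 were called higher and 1384 lower, against 967 higher with filterByExpr, and 581 higher and 830 lower with protein-coding genes only, where fewer genes were tested. Other causes were not tested.

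Libraries of the same replicate number were not treated as pairs in the main fit. The deviations of same-numbered libraries correlated at -0.03, 0.07 and 0.04 for replicates 1, 2 and 3. Replicates 2 and 3 correlated best with their own number and replicate 1 did not. Values this near 0 cannot decide whether the numbers pair the libraries. With the replicate block, 4 of the 8 genes were called higher (RSAD2 at 4.15, MX2 at 1.70) and 1419 of all genes, and no call among the 8 changed. At low counts, as for MX1, MX2 and CMPK2, depth and 3 libraries leave intervals of about 1 on the log2 scale or wider.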

Other observations

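Some lineage markers outside the antiviral programme differed between the groups. Of 4 epithelial genes, the basal keratin KRT14 fell by 1.82 on the log2 scale, from 712, 691 and 663 counts in siCTRL to 180, 216 and 191 in siSFPQ, while the adhesion gene CDH1 (0.76) and KRT5 (0.59) rose and EPCAM (-0.18) did not pass edgeR's test. Summed over the 4 genes, the level was 21.9 to 23.5 CPM in siCTRL and 11.7 to 12.7 CPM in siSFPQ. Of 3 endothelial genes, CDH5 (1.39) and VWF (0.53) rose, with VWF at 144, 201 and 156 counts in siCTRL and 265, 229 and 230 in siSFPQ. Among the mesenchymal genes, VIM, which encodes vimentin, rose by 0.32, and COL1A1, the main chain of bone collagen, fell by 0.35. Their part in the changes of the antiviral effector genes was not tested.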
